A study of Homo sapiens with 6 samples.

Results

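BRA peaks were examined at 7 genes of blood and vascular mesoderm: the receptor genes PDGFRA, KIT and KDR and the transcription factor genes TAL1, LMO2, RUNX1 and ETV2. A peak belonged to a gene when its midpoint lay in the gene body or within 50 kb on either side. These windows cover 1215 kb and held 52 of the 54994 peaks in the 4 deposited lists. The windows were given in hg19, the build named in the submitters' processing notes, and all peak positions are hg19, counted from 1. BRA (brachyury, T) is a T-box transcription factor of the primitive streak.

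The cells were H9, a widely used line of human embryonic stem cells. All were differentiated over 36 h in a defined medium holding FGF2 (20 ng/ml) and LY294002, an inhibitor of PI3 kinase (10 μM). Activin A at 100 ng/ml was added in FLyA medium, labelled as endoderm progenitors, and BMP4 at 10 ng/ml in FLyB medium, labelled as mesoderm progenitors. No sort is described, and the cultures were collected for ChIP-seq with an R&D Systems or a Santa Cruz antibody, giving 1 library for each medium and antibody. The 2 input libraries, 1 per medium, were not analysed here. The lists hold positions only, 400 bp for every peak, with no height, fold enrichment or p-value, so the depth behind a peak is unknown. The study treats its antibodies as replicate experiments, so each medium has a second library, but with another antibody and a much shorter list. For the Santa Cruz antibody the paper reports a lower signal-to-noise ratio and fewer unique reads. The paper's later analyses used only the R&D Systems data. Media were therefore compared within each antibody, which makes 2 pairs, and an exact two-sided permutation test of 2 pairs cannot give a p below 0.5, so no p-value was computed. Exact 95% intervals are Poisson for densities and Clopper-Pearson for shares, and cover counting error only, with neighbouring peaks treated as independent. No expression was measured in these files, so the labelled cell types could not be checked against marker genes.

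Blood and vessels arise together from mesoderm that leaves the posterior primitive streak under BMP signalling. KDR, a VEGF receptor, marks the common progenitors of both, and ETV2, an ETS factor, switches on the endothelial and blood programme in them. TAL1, a basic helix-loop-helix factor, and LMO2, a LIM-only protein that bridges TAL1 and GATA factors, act in a shared complex at the onset of blood formation. RUNX1 is required for blood stem cells to emerge from haemogenic endothelium. KIT is the receptor for stem cell factor on blood progenitors, and PDGFRA, a PDGF receptor, marks paraxial and cardiac mesoderm.

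Promoter sequences are shown for the 4 genes with an R&D Systems peak within 2 kb of the 5′ end that the window rule implies, which is known to the nearest kb. Distances from it are to a peak's or site's midpoint, and negative values lie upstream. The sequences are the 250 bases before a RefSeq start, 5′ to 3′, with GRCh38.p14 coordinates, and were not placed on hg19. For PDGFRA, which has more than one start in the RefSeq table, the outermost is shown.
PDGFRA, chr4:54229043-54229292, plus strand: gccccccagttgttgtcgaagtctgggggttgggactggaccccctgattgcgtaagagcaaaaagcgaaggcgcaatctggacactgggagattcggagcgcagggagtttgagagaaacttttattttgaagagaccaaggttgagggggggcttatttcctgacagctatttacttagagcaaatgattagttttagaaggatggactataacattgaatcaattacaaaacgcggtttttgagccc
KIT, chr4:54657707-54657956, plus strand: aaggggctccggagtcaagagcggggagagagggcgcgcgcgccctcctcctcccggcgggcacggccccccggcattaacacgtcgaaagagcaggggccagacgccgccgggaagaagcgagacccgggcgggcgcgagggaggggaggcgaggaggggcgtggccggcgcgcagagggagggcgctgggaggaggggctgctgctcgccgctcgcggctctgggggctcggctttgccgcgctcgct
KDR, chr4:55125596-55125845, minus strand: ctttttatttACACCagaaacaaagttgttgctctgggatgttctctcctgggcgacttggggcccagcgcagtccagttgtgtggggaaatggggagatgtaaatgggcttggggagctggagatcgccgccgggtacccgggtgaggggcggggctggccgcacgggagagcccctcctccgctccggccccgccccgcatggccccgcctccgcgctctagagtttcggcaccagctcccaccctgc
ETV2, chr19:35641495-35641744, plus strand: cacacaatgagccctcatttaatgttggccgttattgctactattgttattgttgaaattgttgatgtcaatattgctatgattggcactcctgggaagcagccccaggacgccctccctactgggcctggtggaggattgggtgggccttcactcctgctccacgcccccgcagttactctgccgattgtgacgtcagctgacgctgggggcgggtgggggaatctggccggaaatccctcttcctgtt
Capitals mark GGTGT or its reverse complement ACACC, the inner letters of the T-BOX consensus to which BRA binds. RefSeq promoters were matched for 6 of the 7 genes, 8 promoters in all, and searched on both strands. The longer string GGTGTGA, which contains the other strings searched, was in 0 of these 8 promoters and in 2.76% of all 35116 promoters. GTGTGA was likewise in 0 of 8, against 9.90% of all promoters. The short string GGTGT was in 2 of the 8, 1 of KDR and 1 of TAL1, against 32.2% of all promoters. These counts describe the letters in the 250 bases before the starts, and the peaks themselves could not be searched, since no hg19 sequence was used.

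In the windows, FLyB gave more R&D Systems peaks than FLyA. Most window peaks came from this antibody, but its lists are also much the longer ones. Genome-wide they run to 25864 peaks in FLyA and 23687 in FLyB, and the Santa Cruz lists to only 2436 and 3007. The majority of R&D Systems peaks was therefore not read as a feature of the 7 genes. The FLyA R&D Systems list placed 18 peaks in the windows and the FLyB R&D Systems list 28. The Santa Cruz lists placed 0 in FLyA and 6 in FLyB. The FLyB R&D Systems peaks stood at 23.0 per Mb (95% interval 15.3 to 33.3), 2.86 times the 8.05 per Mb of the whole list (interval of the ratio 1.90 to 4.14). The FLyA peaks stood at 14.8 per Mb (8.78 to 23.4), 1.69 times the 8.79 per Mb of their list, with an interval of 0.999 to 2.66 that just reached 1. With flanks of 25 kb the FLyA ratio was 1.97 (1.10 to 3.25) and with flanks of 100 kb 1.78 (1.20 to 2.54), both with intervals above 1. Without KDR it was 1.28 (0.661 to 2.23). The paper names KDR and LMO2 among BRA targets from these data, and the 7 genes were chosen with earlier results known. The ratios are therefore descriptions and not a test of enrichment. The whole-list density also covers stretches without genes, and windows around other genes were not counted. Whether these windows differ from gene windows in general was therefore not tested. FLyB density was above that of its list beyond counting error under each of 9 other choices of flank or genes, and FLyA density under 7 of 9. These choices share peaks, so they are not independent of one another. Peaks also cluster, which makes Poisson intervals too narrow. At PDGFRA the list density would give 1.36 FLyB peaks, yet 1.10% of tiles of that width held at least the 9 found there. Of the 46 R&D Systems peaks in the windows, 60.9% (45.4 to 74.9%) were FLyB peaks, against 47.8% of all R&D Systems peaks. That interval includes the whole-list value, so a shift of the 7 genes as a group towards FLyB was not detectable with these counts. With the Santa Cruz antibody all 6 peaks were FLyB peaks (100%, 54.1 to 100%), where the whole lists held 2436 FLyA and 3007 FLyB peaks, and the interval just includes the FLyB share of those. FLyB peaks thus outnumbered FLyA peaks in the windows with both antibodies, but neither FLyB share differed from that of its lists beyond counting error.

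The interval of the Santa Cruz FLyA density, 0 to 3.04 per Mb, reached 3.67 times that of its list, and the density of the list would give 1.01 peaks in 1215 kb. Its lack of peaks was therefore within counting error. The 6 Santa Cruz FLyB peaks stood at 4.83 times the density of their list (1.77 to 10.5), and 3 of them lay in the PDGFRA window, without which the ratio was 2.81 with an interval of 0.579 to 8.20 that includes 1.

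**Figure D1:**
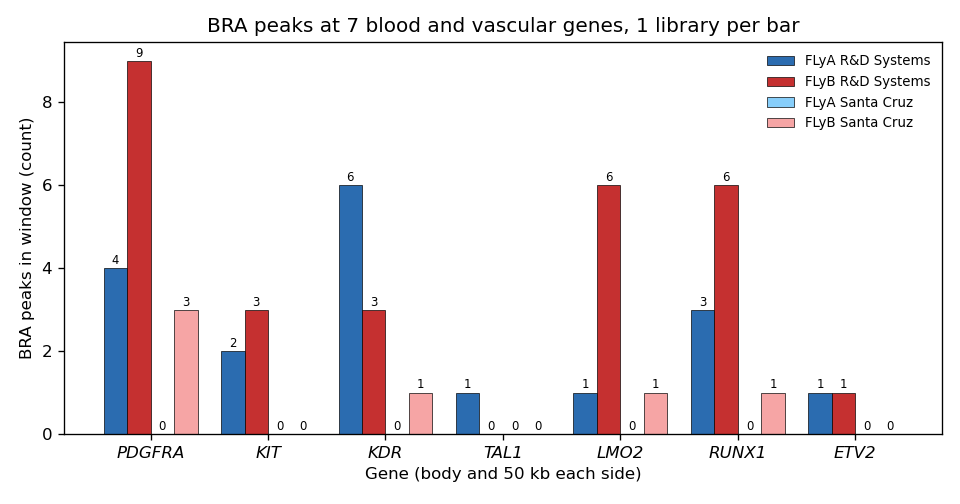
Number of BRA peaks (y axis) in the window of each gene (x axis, gene body and 50 kb each side), with 1 bar for each of the 4 libraries. PDGFRA had the most FLyB R&D Systems peaks (9), KDR was the gene with the largest excess of FLyA over FLyB peaks (6 and 3), and the Santa Cruz FLyA library had 0 at all 7 genes.

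Where peaks of the lists overlapped by at least 1 bp they were joined, which gave 41 sites. Of these, 6 were called with the R&D Systems antibody in both media, 12 in FLyA only and 22 in FLyB only, and 1 was called by the Santa Cruz antibody alone, in FLyB. Of the 18 FLyA peaks 12 had no FLyB peak (66.7%, 41.0 to 86.7%), against 67.0% of the whole list. Of the 28 FLyB peaks 22 had no FLyA peak (78.6%, 59.0 to 91.7%), against 63.9%. Both shares were within counting error of the whole-list shares. Of the 12 unshared FLyA peaks 4 had a FLyB peak within 10 kb (33.3%, 9.92 to 65.1%), against 24.4% of the unshared peaks of the whole list. Of the 22 unshared FLyB peaks 9 had a FLyA peak within 10 kb (40.9%, 20.7 to 63.6%), against 31.8%. The 6 shared sites lay at PDGFRA (3), RUNX1 (2) and KDR (1), and the windows of KIT, TAL1, LMO2 and ETV2 held none. At shared sites the midpoints of the FLyA and FLyB peaks were 8 to 124 bp apart, with a median of 56.5 bp, against a median of 38.0 bp over all overlapping R&D Systems peaks.

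**Figure D2:**
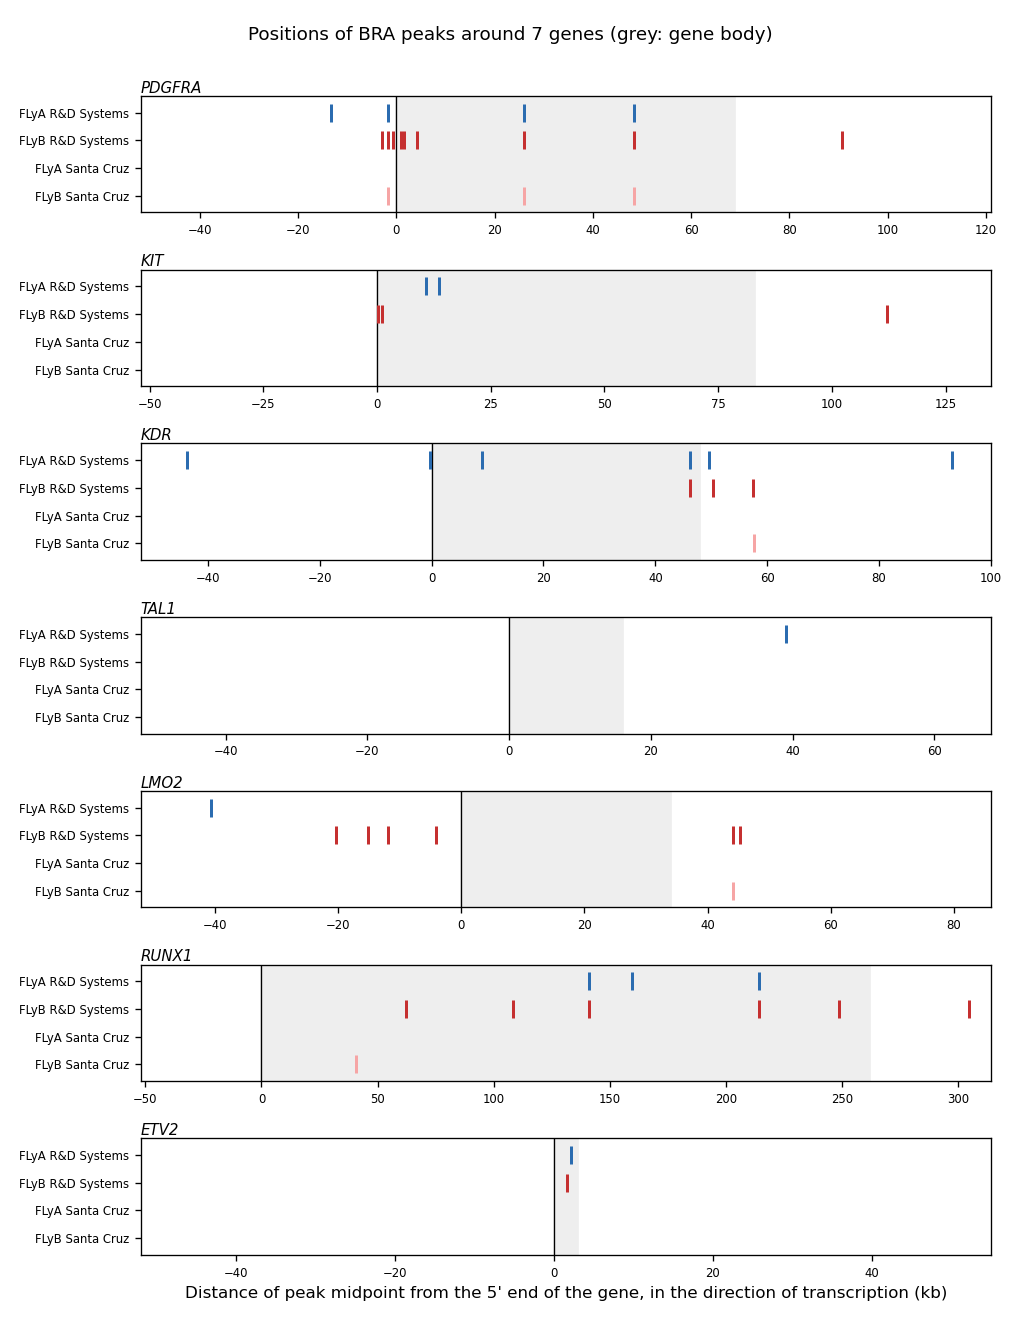
Midpoints of BRA peaks (ticks) around each gene, as distance in kb from its 5′ end in the direction of transcription, with a row for each of the 4 libraries and the gene body in grey. FLyB ticks crowd around the 5′ end of PDGFRA and lie upstream of LMO2, and the tick next to the 5′ end of KDR is a FLyA tick.

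PDGFRA had the highest density of FLyB peaks of the 7 genes, at 6.62 times that of the whole list (3.02 to 12.6). This interval overlapped that of LMO2 (2.04 to 12.1). In FLyA, KDR was denser, at 4.61 times its list against 2.69 times at PDGFRA. The PDGFRA window on chromosome 4, from 55045000 to 55214000, held 4 FLyA and 9 FLyB R&D Systems peaks. The Santa Cruz lists had 0 peaks there in FLyA and 3 in FLyB. Among genome tiles of the same width, 1.10% held as many FLyB peaks, 11.2% as many FLyA peaks and 0.535% as many Santa Cruz FLyB peaks. At least 5 more FLyB than FLyA peaks were found in 1.27% of the tiles, and 87.7% held no Santa Cruz FLyA peak. The excess of FLyB came from the 5′ end. There, 6 FLyB peaks lay within 7.7 kb, at chr4:55091844-55099502 with midpoints from -3.0 to 4.3 kb of the 5′ end. Only 0.131% of all R&D Systems FLyB peaks belonged to a run of 6 as tight as this one, which was described after its peaks had been seen. A single FLyA peak fell in that stretch.

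That FLyA peak, chr4:55093204-55093603, and the FLyB peak chr4:55093212-55093611 were 8 bp apart, and the Santa Cruz FLyB peak lay 15 bp from the latter. This site, at -1.6 kb, was thus called in 3 of the 4 libraries. The same 3 libraries called a site inside the gene at chr4:55120740-55121215, 26.0 kb from the 5′ end, and another at chr4:55143081-55143573, 48.3 kb from it. All 3 sites that PDGFRA shared between the media were also the 3 that the Santa Cruz antibody found in FLyB. Of the whole Santa Cruz FLyB list, 43.1% of peaks overlapped an R&D Systems FLyA peak. The other PDGFRA sites were each called in 1 library. In FLyB these were 5 further peaks of the 5′ run and chr4:55185390-55185789 downstream, and in FLyA chr4:55081522-55081921, at -13.3 kb. The 5 FLyB-only peaks of the run lay 473 to 5499 bp from the edge of the nearest FLyA peak.

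KIT had peaks of both media inside the gene, and none of them overlapped between the media. Its window, chromosome 4 from 55474000 to 55657000, held 2 FLyA and 3 FLyB R&D Systems peaks, and 0 from the Santa Cruz antibody in either medium. As many FLyA peaks were found in 41.1% and as many FLyB peaks in 20.3% of tiles of this width, so neither count stood out, and at least 1 more FLyB than FLyA peak was found in 25.5%. Of these tiles, 86.8% had no Santa Cruz peak in FLyA and 85.2% none in FLyB. A FLyB peak at chr4:55523896-55524295 covered the 5′ end set by the rule, and a second lay at chr4:55524842-55525241, 1.0 kb inside the gene. The FLyA peaks lay further in, 10.7 and 13.7 kb from the 5′ end, at chr4:55534454-55534853 and chr4:55537476-55537875. The nearest peaks of the different media were 9212 bp apart. In the KIT window, 2 of 2 FLyA peaks had no FLyB peak (15.8 to 100%), against 67.0% of the whole list. For FLyB, 3 of 3 had no FLyA peak (29.2 to 100%), against 63.9%. Both shares were within counting error of the lists. The remaining FLyB peak, chr4:55635896-55636295, was 112.1 kb from the 5′ end and downstream of the gene.

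KDR was the gene at which FLyA peaks outnumbered FLyB peaks by most. Its window, chromosome 4 from 55894000 to 56042000, held 6 FLyA and 3 FLyB R&D Systems peaks, with 0 Santa Cruz peaks in FLyA and 1 in FLyB. As many FLyA peaks were found in 2.32% of tiles of this width and as many FLyB peaks in 15.6%. For the Santa Cruz antibody, 89.2% had no FLyA peak and 12.3% at least 1 FLyB peak. The FLyA density was 4.61 times that of the whole list (1.69 to 10.0) and the FLyB density 2.52 times (0.519 to 7.36). The share of FLyB among these 9 peaks was 33.3% (7.49 to 70.1%), which includes the 47.8% of the whole lists. At least 3 more FLyA than FLyB peaks were found in 4.40% of tiles. The only Santa Cruz peak here was a FLyB peak that overlapped an R&D Systems FLyB peak, and 1 peak gives no direction between the media.

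At KDR, 5 of the 6 FLyA peaks had no FLyB peak (83.3%, 35.9 to 99.6%), against 67.0% of the whole list. Of the 3 FLyB peaks, 2 had no FLyA peak (66.7%, 9.43 to 99.2%), against 63.9%. Both shares were within counting error of the lists, so the positions below are descriptions. The gene lies on the minus strand, and the FLyA peak chr4:55991974-55992373 overlapped the 5′ end set by the rule, with its midpoint at -0.2 kb. As that end is rounded to the nearest kb, overlap with the true 5′ end was not shown. The nearest FLyB peak was 45933 bp away. The FLyA list had 2 more peaks without a FLyB partner on this side of the window, chr4:55982672-55983071 in the gene (9.1 kb) and chr4:56035521-56035920 upstream (-43.7 kb). All 3 FLyB peaks lay at the 3′ end of the gene or beyond it. The only shared KDR site, chr4:55945583-55946040, was 46.2 kb from the 5′ end and still inside the gene. Just past the 3′ end, a FLyB peak at chr4:55941543-55941942 and a FLyA peak at chr4:55942171-55942570 lay 228 bp apart without touching. The third FLyB peak, in chr4:55934206-55934700, was found with both antibodies and had no FLyA peak on it. A FLyA peak 93.0 kb from the 5′ end, chr4:55898763-55899162, was the outermost on this side.

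**Figure D3:**
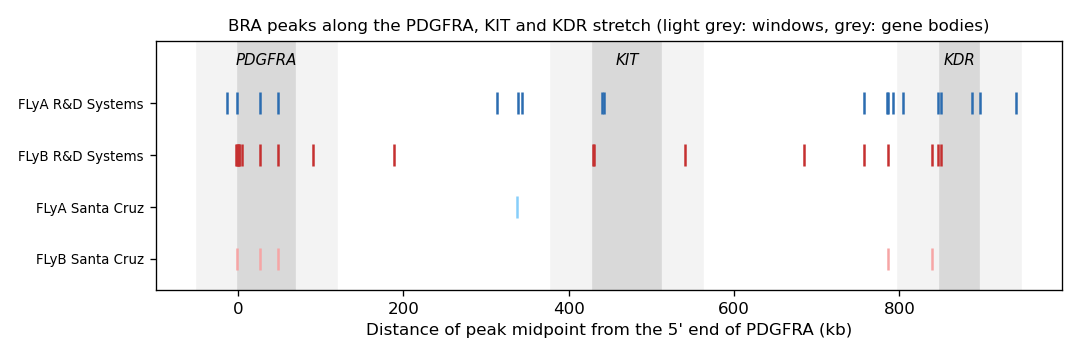
Midpoints of BRA peaks along chromosome 4 from the PDGFRA to the KDR window, as distance in kb from the 5′ end of PDGFRA, with a row for each of the 4 libraries, windows in light grey and gene bodies in grey. The Santa Cruz FLyB library had 3 peaks in the PDGFRA window, 0 in that of KIT and 1 in that of KDR.

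LMO2 had peaks only outside the gene body, and most of them were FLyB peaks. Its window, chromosome 11 from 33830000 to 33964000, held 1 FLyA and 6 FLyB R&D Systems peaks, and the Santa Cruz lists had 0 peaks in FLyA and 1 in FLyB. Such a count of FLyB peaks was found in 2.62% of tiles of this width and such a count of FLyA peaks in 57.7%. For the Santa Cruz antibody, 90.1% had no FLyA peak and 11.3% at least 1 FLyB peak. At least 5 more FLyB than FLyA peaks were found in 0.834% of tiles, against 1.27% for the same difference at PDGFRA. The FLyB density was 5.56 times that of the whole list (2.04 to 12.1), and the FLyA density 0.849 times (0.0215 to 4.73). Of the 7 R&D Systems peaks, 85.7% were FLyB peaks, with an interval of 42.1 to 99.6% that still includes 47.8%. The gene body is 34 kb long and the lists hold 8.79 (FLyA) and 8.05 (FLyB) peaks per Mb. Its 0 peaks are therefore not a shown depletion.

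The FLyB peaks of LMO2 fell into a group on each side of the gene, which lies on the minus strand. Upstream, 4 peaks lay in 16.7 kb, at -4.0, -11.9, -15.1 and -20.3 kb, with 0 FLyA peaks between them. The closest of these to the gene was chr11:33917823-33918222. Runs of 4 as tight as this held 9.01% of all R&D Systems FLyB peaks, so this spacing was not rare. Downstream, FLyB peaks lay at chr11:33868459-33868858 and chr11:33869570-33869969, and the Santa Cruz antibody called the latter in FLyB, 19 bp away. The only FLyA peak of the window, chr11:33954384-33954783, was at -40.6 kb. None of the 6 FLyB peaks at LMO2 lay closer than 19884 bp to a FLyA peak. Over the whole list, 31.8% of unshared FLyB peaks had a FLyA peak within 10 kb, so longer distances were common.

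RUNX1 has the longest body of the 7 genes, 262 kb, and 7 of its 8 sites lay in it. The window, chromosome 21 from 36110000 to 36472000, held 3 FLyA and 6 FLyB R&D Systems peaks, with 0 Santa Cruz peaks in FLyA and 1 in FLyB. For tiles of this width, 51.2% held as many FLyA peaks and 16.1% as many FLyB peaks, and 10.2% had at least 3 more FLyB than FLyA peaks. No Santa Cruz FLyA peak was found in 76.0% of them and at least 1 Santa Cruz FLyB peak in 26.4%. Per Mb, its FLyA peaks stood at 0.943 times (0.194 to 2.76) and its FLyB peaks at 2.06 times (0.756 to 4.48) the density of their lists. Neither ratio differed from 1 beyond counting error. Both media called sites at chr21:36207711-36208177 and chr21:36280704-36281227, in the gene, with the media 67 and 124 bp apart. In the gene body, FLyB alone had peaks at 62.2, 108.3 and 248.4 kb from the 5′ end, and FLyA alone had 1 at 159.3 kb, chr21:36262488-36262887. RUNX1 lies on the minus strand. Any start inside the gene was not placed on hg19, so nearness of a peak to such a start was not assessed. The peak nearest to the 5′ end that the window rule implies, at 40.8 kb, was a Santa Cruz FLyB peak, chr21:36381047-36381446. It was also the only one of the 6 Santa Cruz FLyB peaks without an R&D Systems peak on it. The last FLyB peak lay downstream of the gene, at chr21:36117289-36117688.

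ETV2 and TAL1 had few peaks. ETV2, a gene of 3 kb, carried 1 peak of each medium with the R&D Systems antibody and 0 with the Santa Cruz antibody. Both lay in the gene body, FLyB at chr19:36134441-36134840 and FLyA at chr19:36134927-36135326. They were 86 bp apart and so counted as unshared, though a rule of at most 500 bp between peaks would join them. At least 1 peak was found in 49.5% of tiles of this width in FLyA and 42.6% in FLyB, and no Santa Cruz peak in 92.3% in FLyA and 91.0% in FLyB. The window, chromosome 19 from 36083000 to 36186000, held no other peak. In RefSeq, HAUS5, RBM42, COX6B1 and UPK1A lie within 50 kb of ETV2. By the same rule, both ETV2 peaks could therefore also count for these neighbours.

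TAL1 had 1 FLyA R&D Systems peak and 0 peaks in each of the other lists. Its window, chromosome 1 from 47632000 to 47748000, was without a FLyB peak, like 54.4% of tiles of this width, whereas 53.2% held at least 1 FLyA peak and 29.8% at least 1 more FLyA than FLyB peak. Of these tiles, 91.4% had no Santa Cruz peak in FLyA and 90.0% none in FLyB. The FLyA peak, chr1:47658653-47659052, was 39.1 kb from the 5′ end and downstream of the gene, on the side on which PDZK1IP1 is the next protein-coding gene in RefSeq. The nearest FLyB peak was 161343 bp away. The interval of the FLyB density in the TAL1 window reached 3.95 times the whole-list density, so its 0 is not a shown depletion.

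**Figure D4:**
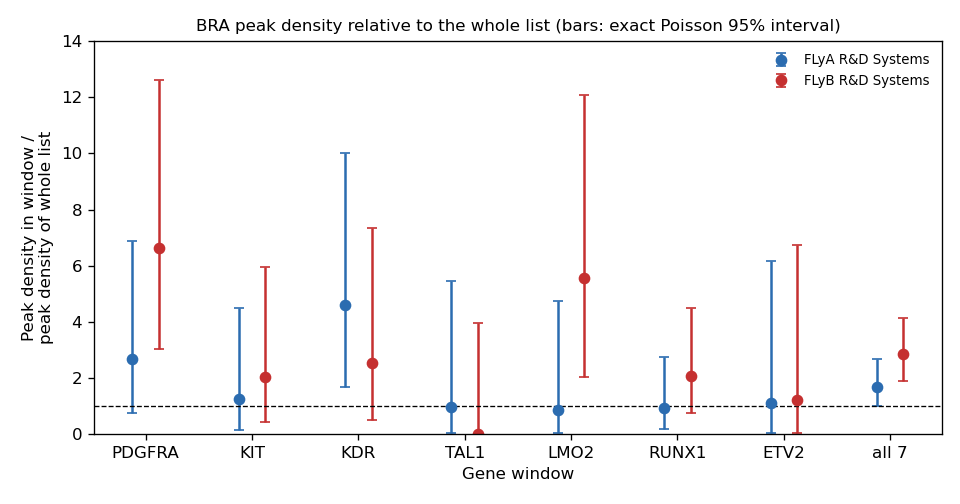
Density of R&D Systems peaks in each window divided by the density of the whole list (y axis), for FLyA and FLyB at each gene and over all 7 windows (x axis), with points for 1 library each and bars for exact Poisson 95% intervals. The intervals of FLyB at PDGFRA and LMO2, of FLyA at KDR and of FLyB over all 7 lie above the dashed line at 1, and the other intervals include it.

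Compared by role, the receptor genes held 13 (PDGFRA), 5 (KIT) and 9 (KDR) R&D Systems peaks, and the factor genes 9 (RUNX1), 7 (LMO2), 2 (ETV2) and 1 (TAL1). The windows run from 103 kb (ETV2) to 362 kb (RUNX1), so these counts are not comparable between genes. RUNX1 and KDR both held 9, yet the density ratios of RUNX1 were 0.943 (FLyA) and 2.06 (FLyB). Those of KDR were 4.61 and 2.52, with intervals that overlapped those of RUNX1. The intervals of FLyB densities of neighbouring genes in the order PDGFRA, LMO2, KDR, RUNX1, KIT, ETV2 and TAL1 overlapped in every case, so this order is not resolved.

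Of the 28 FLyB peaks, 26 lay in a gene body or within 25 kb of it. The gene bodies held 14 FLyB peaks (27.2 per Mb), the first 25 kb on either side 12 (34.3 per Mb) and the next 25 kb 2 (5.71 per Mb). For FLyA the same zones held 10, 5 and 3 peaks, or 19.4, 14.3 and 8.57 per Mb. Between 50 and 100 kb from the genes, outside the windows, there were 12 FLyA and 7 FLyB peaks (17.1 and 10.0 per Mb). With flanks of 100 kb the FLyA and FLyB counts were thus 30 and 35 rather than 18 and 28. The peak closest to a limit on the inside was the FLyA peak 5.0 kb within the KDR window, and on the outside a FLyB peak 5.7 kb beyond that of LMO2.

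The 2 antibodies agreed in FLyB at 5 sites, 3 at PDGFRA and 1 each at KDR and LMO2. Of the 6 Santa Cruz FLyB peaks these are 83.3% (35.9 to 99.6%), against 79.0% of the whole list. Of the 28 R&D Systems FLyB peaks they are 17.9% (6.06 to 36.9%), against 10.0%. In FLyA, 0 of 18 R&D Systems peaks had a Santa Cruz peak (interval up to 18.5%), against 3.02% of the list, and no Santa Cruz FLyA peak lay in the windows to compare with the 31.9% of that list on an R&D Systems peak. Each of these shares was within counting error of its list. Of the 5 sites, only those at KDR and LMO2 had no FLyA R&D Systems peak, and both lay downstream of their genes.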

How the data were processed

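BRA ChIP-seq was analysed in 4 libraries, 1 per medium and antibody. The 2 input libraries were not analysed here. Per the labels, Bowtie 0.12.7 and hg19 were used, and per the methods peaks were called with MACS. The authors deposited each peak as a chromosome, start and end, with no score. In the Santa Cruz files the track lines state 1e-12 as the peak threshold. For R&D Systems the threshold is not given in the sources used here, so the numbers of peaks per antibody are not comparable. Enrichment is described in the study as relative to input, but the settings behind each list and the treatment of duplicates are not given in the sources used here. A site missing from a list is not shown to be unbound.

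Peaks were assigned by midpoint. Overlaps were computed in Python 3.11.15 (NumPy 2.4.6 and, for intervals, SciPy 1.17.1), checked with bedtools 2.31.1 and tested on simulated data. Figures were drawn with matplotlib 3.10.9. Whole-list densities used the 2942 Mb between the first and last peak of each chromosome. Tiles were consecutive stretches of a gene's window width along each chromosome, regardless of genes or mappability. Gene ends follow from the windows to the nearest kb, so exons and introns were not assigned. All strands but that of LMO2, taken from general knowledge, and all promoters came from RefSeq tables of GRCh38.p14.

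All 7 genes were named, with sites found by both antibodies, in both media or nearest the 5′ end, and the remaining sites were added after they had been seen. The members and lists were chosen with earlier results of these data known. The comparison of media within the Santa Cruz antibody and the intervals under other flanks or genes were added after the data had been seen. The planned search of peaks for T-BOX letters and the counts at other blood and vascular genes need hg19 sequence or annotation and were not run.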

Additional observations from a re-analysis of the deposited data

How the results depend on the processing

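A share or a density ratio counted as changed when it left the 95% interval of the reported value, and a count when it differed by more than 1.5 times. By this, 56 of 64 alternatives left the value where it was and 8 did not. With the gene bodies alone, the counts were 10 (FLyA R&D Systems), 14 (FLyB R&D Systems) and 3 (FLyB Santa Cruz). With flanks of 100 kb, the FLyA R&D Systems count was 30 and the FLyA Santa Cruz count 1. These follow from the smaller or larger length searched. In the Santa Cruz lists 100% of the 6 FLyB peaks had no peak of the other medium, as the FLyA list had none in the windows and so gave no share of its own. Against the median of tiles of the same width, the FLyB R&D Systems density was 5.60 times as high, since tile medians lie below the whole-list density. The letters GGTGT, added after the longer strings had been searched, were in 2 of 8 promoters against 0. Among 9 other choices of flank or genes, which share peaks, the interval of the FLyA ratio lay above 1 in 7. It was 1.12 to 3.30 without RUNX1, where the ratio was highest. It included 1 without KDR (ratio 1.28) and without PDGFRA (1.52). Leaving out 1 gene at a time gave FLyB ratios of 2.26 (without PDGFRA) to 3.20 (without RUNX1), with no interval that included 1. For the Santa Cruz FLyB list the interval included 1 only without PDGFRA (ratio 2.81). Against tile medians the FLyA ratio was 2.25. Joining peaks at most 500 bp apart lowered the unshared share to 55.6% in FLyA and 67.9% in FLyB, within their intervals. The labels give no replicate numbers, and with the antibodies as 2 pairs the smallest two-sided p an exact permutation test can give is 0.5. Depth is unknown, which limits the reading of every site called in 1 list only.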

Other observations

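The stretches of chromosome 4 between the receptor windows also held peaks, which belong to no window. Between PDGFRA and KIT, 260 kb held 3 FLyA and 1 FLyB R&D Systems peaks, and as many were found in 36.9% and 68.6% of tiles of that width. One FLyA site there, at chr4:55432824-55433223, was also called by the Santa Cruz antibody in FLyA, at chr4:55432745-55433144, and had no FLyB peak. It was the Santa Cruz FLyA peak nearest to any of the 7 windows, 41 kb from that of KIT. Between KIT and KDR, 237 kb held 4 FLyA and 3 FLyB R&D Systems peaks, as many as in 20.0% and 27.3% of tiles. The site chr4:55880973-55881372 was called there in FLyA, with a FLyB peak at chr4:55881008-55881407 and a Santa Cruz FLyB peak at chr4:55880883-55881282. This site was called in 3 of 4 libraries, as were the 3 shared sites of PDGFRA.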
